A study of Mus musculus with 4 samples.

Results

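Platelet glycoprotein and alpha granule genes were examined in cardiac endothelial cells of adult mice. The group was chosen by name and holds 8 genes: Pf4 and Ppbp, which encode chemokines stored in platelet alpha granules, Gp1ba, Gp1bb, Gp9 and Gp5, which encode the subunits of the platelet receptor for von Willebrand factor, and Gp6 and Clec1b, which encode activating receptors. Each was read by 1 probe with 1 spot on the array, so the group comprises 8 of 41174 non-control probes, and all 8 were among the 26894 probes, of 13628 genes with a symbol, that were tested. Total RNA from 4 samples was labelled with Cy3 and hybridised to 1-colour Agilent arrays, 1 array per sample. The 2 control samples came from wild type mice, and the 2 samples titled G2-EC-KO carried a Gata2 knock out. The promoter or driver behind the knock out, the part of Gata2 deleted, the strain, the age beyond adult, the cell isolation and whether animals were pooled are not given in the sources used here. Nothing in the labels says that the replicates came from separate mice, so the p-values measure only how these samples scatter, and that scatter may be technical.

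Platelets are small cells without a nucleus that are shed by megakaryocytes and keep a store of megakaryocyte RNA. In the circulation they bind von Willebrand factor through the GPIb-IX-V complex and collagen through GPVI, and on activation they release chemokines and growth factors from alpha granules. Healthy endothelium is not a usual source of their transcripts, which are used as markers of the platelet and megakaryocyte lineage. Pf4 is less specific than the glycoprotein genes, since some tissue macrophages also express it. In bulk RNA of this kind, fewer platelets and less RNA per platelet cannot be told apart.

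GATA and ETS family transcription factors are textbook regulators of megakaryocyte genes, and the labels name a GATA factor as the gene knocked out, so the stretch before the start of each gene was read from RefSeq (GRCm38.p6). All 8 genes matched by symbol. The 250 bases before the start were searched on both strands for GATA words of 6 letters, in which GATA has A or T before it and A or G after it, and for the ETS word GGAAG, and no matches overlapped in the windows of the 8 genes. A GATA word stood in 5 of 8 windows, those of Gp1ba, Gp1bb, Gp5, Gp6 and Clec1b, against 26.5% of 32851 windows of the same length in the table. The ETS word stood in 6 of 8 windows, all but those of Gp6 and Clec1b, against 64.1% of all windows, and both kinds stood in 3 of 8 against 15.8%. The windows of Gp1ba and Gp5 are shown because each held 3 GATA words, which began 104, 51 and 23 bases before the start of Gp1ba and 115, 93 and 77 bases before that of Gp5. Those of the chemokine genes Pf4 and Ppbp are shown beside them because they held none. The matches are in capitals, those with TATC or CTTCC being words on the other strand, and each sequence is printed along the strand of its gene.
Gp1ba (chr11:70638872-70639121, + strand): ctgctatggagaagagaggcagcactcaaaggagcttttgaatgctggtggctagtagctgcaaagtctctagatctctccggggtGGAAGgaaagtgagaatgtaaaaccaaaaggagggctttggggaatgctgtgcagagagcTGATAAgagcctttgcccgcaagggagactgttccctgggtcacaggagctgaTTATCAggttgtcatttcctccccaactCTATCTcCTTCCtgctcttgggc
Gp5 (chr16:30310782-30311031, - strand): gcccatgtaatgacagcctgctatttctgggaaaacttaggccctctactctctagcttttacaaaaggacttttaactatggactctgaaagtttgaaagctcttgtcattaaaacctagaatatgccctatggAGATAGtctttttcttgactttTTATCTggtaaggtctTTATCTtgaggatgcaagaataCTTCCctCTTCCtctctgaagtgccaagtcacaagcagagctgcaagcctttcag
Pf4 (chr5:90772185-90772434, + strand): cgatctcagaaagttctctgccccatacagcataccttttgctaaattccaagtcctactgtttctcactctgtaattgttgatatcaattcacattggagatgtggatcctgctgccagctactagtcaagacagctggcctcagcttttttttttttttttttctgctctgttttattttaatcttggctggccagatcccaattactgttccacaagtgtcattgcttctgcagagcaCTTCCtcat
Ppbp (chr5:90768268-90768517, + strand): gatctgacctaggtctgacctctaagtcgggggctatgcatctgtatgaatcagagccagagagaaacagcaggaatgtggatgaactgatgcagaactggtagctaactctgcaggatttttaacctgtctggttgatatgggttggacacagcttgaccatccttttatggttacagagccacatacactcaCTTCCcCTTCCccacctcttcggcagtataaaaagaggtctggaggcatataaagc
A match is a description of the letters and not evidence of binding.

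The arrays were of similar brightness. The share of probes well above background lay between 63.8% and 66.5%, the 75th percentile of the processed signal between 1183 and 1441, and 0 non-control spots were saturated. With 2 arrays in a group, every value is of limited precision. All 4 samples shared 1 slide and 1 scan, with controls at positions 1 and 2 and G2-EC-KO samples at 3 and 4, so the effects of position and group cannot be told apart. All 12 genes of an endothelial marker list were well above background on all 4 arrays. The Gata2 probe with the highest signal gave a log2 difference of 0.30 (SE 0.18; limma, adjusted p = 0.584) between G2-EC-KO and control. Since the deleted part is not known, this is no check of the labels, and every direction below rests on them.

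For the platelet genes control replicate 1 stood apart from the other 3 arrays. It gave the lowest value of the 4 arrays at 8 of 8 genes, where it was the lowest array at 25.1% of all probes tested. At 6 of 8 genes it lay below the other arrays by more than those differed among themselves, as it did at 5.77% of all probes, and at 5 of 8 with the genes not well above background on that array at their bound, the lowest signal that was. This order was noticed after the values were seen and is given as a description. The group difference of each of the 8 genes is therefore given below with and without this array. Group differences of other genes and lists are given over all 4 arrays only.

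**Figure D1:**
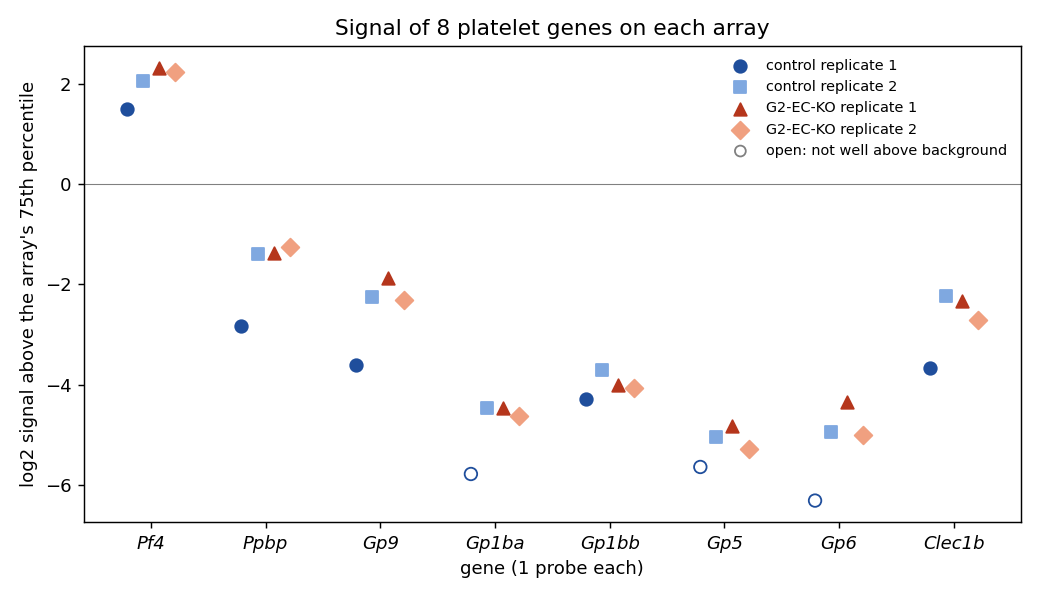
Signal of the 8 platelet genes, 1 probe each (x axis), as log2 above the 75th percentile of the array (y axis); each point is 1 array, and open points were not well above background. Control replicate 1 is the lowest point at 8 of 8 genes, and the open points are its values for Gp1ba, Gp5 and Gp6.

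The alpha granule chemokines were the genes at which the groups did not overlap. Pf4, or CXCL4, binds heparin-like sugars and is a main product of alpha granules. Its processed signal, an intensity on the linear scanner scale, was 3973 and 5998 on control replicates 1 and 2 and 6449 and 5573 on G2-EC-KO replicates 1 and 2. After scaling this was 1.49 and 2.06 in control and 2.32 and 2.24 in G2-EC-KO, where 0 stands for the 75th percentile of an array and the unit is log2. Both G2-EC-KO arrays thus lay above both control arrays, by little over control replicate 2 and by more over control replicate 1. The means were 1.77 ± 0.40 (SD, n = 2) and 2.28 ± 0.06 (SD, n = 2), and the log2 difference of 0.51 (SE 0.22, 95% confidence interval -0.07 to 1.08) missed the threshold of 0.05 (limma, adjusted p = 0.537). Without control replicate 1 the difference was 0.22 (SE 0.19).

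Ppbp encodes the precursor of the neutrophil-attracting chemokine CXCL7 and is the neighbour of Pf4 in the chemokine cluster on chromosome 5. Its processed signal was 199 and 546 in control and 499 and 497 in G2-EC-KO, or -2.83, -1.40, -1.37 and -1.25 on the scaled log2 axis in the same order. Control replicate 2 and both G2-EC-KO arrays were within 0.15 of each other, while control replicate 1 lay 1.43 below the next array. The group means were -2.11 ± 1.01 (SD, n = 2) and -1.31 ± 0.09 (SD, n = 2). Their difference of 0.80 (SE 0.48) had a 95% confidence interval from -0.48 to 2.08 and an adjusted p of 0.588 by limma, and without control replicate 1 it was 0.09 (SE 0.19). Groups that did not overlap, with G2-EC-KO higher, were found at these 2 of 8 genes and at 24.1% of all probes tested, which is near the background. In either direction they were found at 2 of 8 genes, below the 46.4% of all probes.

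Among the subunits of the von Willebrand factor receptor, Gp9 gave the largest separation of control replicate 1. Gp9 encodes the small subunit GPIX. Its processed signal was 116 and 300.3 in control and 352 and 238 in G2-EC-KO, and its scaled log2 values were -3.61 and -2.26 in control and -1.87 and -2.32 in G2-EC-KO. Control replicate 2 lay between the G2-EC-KO arrays, and control replicate 1 lay 1.29 below the lowest of the other 3. The log2 difference was 0.84 (SE 0.48) with all arrays, within a 95% confidence interval from -0.43 to 2.11 (limma, adjusted p = 0.577). It was 0.17 (SE 0.26) without control replicate 1.

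Gp1ba encodes the subunit that binds von Willebrand factor, and its window shown above held 3 GATA words. Its probe was dim, with a processed signal of 25.7 and 65.2 in control and 58.4 and 48.1 in G2-EC-KO. It was not well above background on control replicate 1 and was so on the other 3 arrays. The scaled log2 values were -5.78 and -4.47 in control and -4.47 and -4.62 in G2-EC-KO, so that control replicate 2 read as high as the G2-EC-KO arrays. The log2 difference of 0.58 (SE 0.45; limma, adjusted p = 0.642) was -0.08 (SE 0.20) without control replicate 1.

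Gp1bb, which encodes the beta subunit linked to GPIb alpha, varied least among the 8 genes over the 4 arrays, with a range of 0.59. Its processed signal was 72.6 and 111 in control and 80.2 and 70.7 in G2-EC-KO, and the scaled log2 values were -4.29 and -3.70 in control and -4.01 and -4.06 in G2-EC-KO. The control arrays lay on either side of the G2-EC-KO arrays. Its log2 difference, the only negative one of the 8, was -0.04 with an SE of 0.22 and an adjusted p of 0.945 by limma, with a 95% confidence interval from -0.63 to 0.54, and it was 0.06 with normexp background correction. Without control replicate 1 it was -0.34 (SE 0.19). The gene models of Gp1bb and Septin5 overlap in the RefSeq table and the place of the probe is not given, so transcripts of the 2 genes cannot be told apart at it. The Septin5 probes, named because of this overlap, had their highest signal on control replicate 1, at 0.27 and -2.58, and gave log2 differences of -0.13 and -0.47 (limma, adjusted p = 0.704 and 0.577).

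Gp5 encodes GPV, a subunit that thrombin cleaves, and its window too held 3 GATA words. The processed signal was 28.3 and 43.5 in control and 45.2 and 30.4 in G2-EC-KO, and it was not well above background on control replicate 1. On the scaled log2 axis these were -5.64 and -5.05 in control and -4.83 and -5.28 in G2-EC-KO. The other 3 arrays spread over 0.45, more than the 0.36 that separated control replicate 1 from the next. The log2 difference was 0.29 (SE 0.27; limma, adjusted p = 0.689), and -0.01 (SE 0.26) without control replicate 1.

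The activating receptors showed the same low value on control replicate 1. Gp6 encodes the collagen receptor GPVI, which signals through the Fc receptor gamma chain. Its processed signal was 17.9 and 46.7 in control and 63.7 and 37.0 in G2-EC-KO, with control replicate 1 not well above background. The scaled log2 values were -6.31 and -4.95 in control and -4.34 and -5.00 in G2-EC-KO, the widest range of the 8 genes at 1.97. The log2 difference was 0.96 (SE 0.51) with all arrays, within a 95% confidence interval from -0.39 to 2.31 (limma, adjusted p = 0.566). It was 0.28 (SE 0.33) without control replicate 1.

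Clec1b encodes CLEC-2, the platelet receptor for podoplanin on lymphatic endothelium. Its processed signal was 112 and 308 in control and 257 and 181 in G2-EC-KO, or -3.66 and -2.23 in control and -2.33 and -2.71 in G2-EC-KO on the scaled log2 axis. The highest and the lowest array were both controls. The log2 difference of 0.43 (SE 0.50; limma, adjusted p = 0.749) was -0.29 (SE 0.24) without control replicate 1. The gene model of Clec1b overlaps that of Clec12b in the RefSeq table. The Clec12b probe read -1.28, -1.24, -1.34 and -1.77 on the 4 arrays, with control replicate 1 next to control replicate 2. The podoplanin gene Pdpn was not well above background on 1 array and had a log2 difference of 0.28 (SE 0.33; limma, adjusted p = 0.749), with control replicate 2 lying 0.95 above control replicate 1.

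None of the 8 genes passed an adjusted p of 0.05 by limma, where 0.00372% of all probes were called higher in G2-EC-KO and 0% lower, and none had an unadjusted p under 0.05, against 9.61% of all probes. The adjusted p of the 8 genes lay between 0.537 and 0.945. Since the intervals reach up to 2.31, a difference of that size is not set aside by these values. The sign was positive at 7 of 8 genes, against 50.1% of all probes, and the median log2 difference of the 8 was 0.54, against 0.00 over all probes tested. Without control replicate 1, 4 genes had a positive and 4 a negative difference, the median was 0.04, and 0 of 8 passed against 0.0298% of all probes. Without control replicate 2, 8 of 8 were positive with a median of 1.19. Since all 8 genes read higher on control replicate 2 than on control replicate 1, leaving out either control moves every difference by construction. The shares of positive signs over all probes were not computed for these fits. Pf4, Ppbp, Gp9 and Gp6 kept a positive sign against either control array, while the sign at Gp1ba, Gp5, Clec1b and Gp1bb turned with the control array used. Relative to control replicate 1 the mean of the G2-EC-KO arrays was from 1.19-fold at Gp1bb to 2.86-fold at Ppbp and Gp9 over the 5 genes well above background there. For the other 3 genes only a bound can be given, set against the lowest signal well above background on control replicate 1, and the mean was at least 1.91-fold higher at Gp1ba, 1.75-fold at Gp6 and 1.34-fold at Gp5. With these 3 genes at their bound, the median log2 difference was 0.47 over all arrays and 0.87 without control replicate 2. Relative to control replicate 2 it was from 0.79-fold at Gp1bb to 1.21-fold at Gp6.

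**Figure D2:**
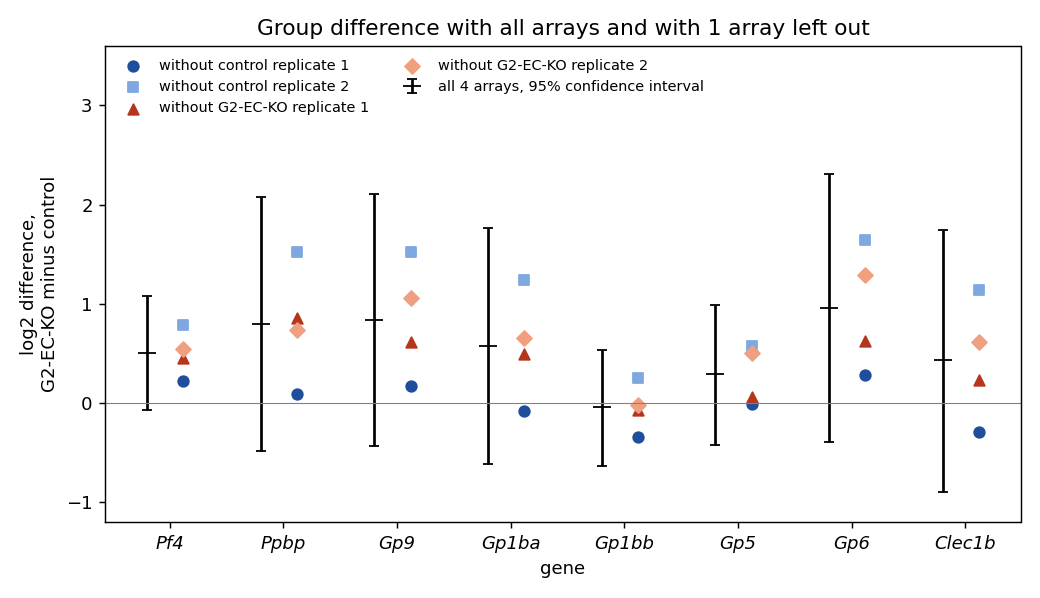
Log2 difference between G2-EC-KO and control for each of the 8 genes (y axis); black marks give the limma estimate over all 4 arrays with its 95% confidence interval, and coloured points the estimate with 1 array left out. All 8 intervals include 0, and the estimates without control replicate 1 lie between -0.34 and 0.28.

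The difference between the control arrays was larger than the group difference at each of the 8 genes as measured, and at 7 of 8 with Gp1ba, Gp5 and Gp6 at their bound. The share of all probes with such an order was not computed. A difference between single arrays scatters more than one between group means, so these counts alone do not set the genes apart. Control replicate 2 read higher than control replicate 1 at 8 of 8 genes, against 49% of all probes, and the median log2 difference was 1.33, or 0.80 with those 3 genes at their bound, against 0.00 over all probes. The gap exceeded 1 log2 unit at 5 of 8 genes, against 0.818% of all probes in that direction. It was 2.69-fold for Ppbp, 2.54-fold for Gp9 and 2.71-fold for Clec1b, and the remaining genes of the 5 were Gp1ba and Gp6, which were not well above background on control replicate 1. Relative to their working bound, control replicate 2 was 2.02-fold higher for Gp1ba, 1.45-fold for Gp6 and 1.35-fold for Gp5, which leaves 4 of 8 genes past 1 log2 unit. Pf4 and Gp1bb differed by 1.48-fold and 1.51-fold. The error that the scanner software gives for a spot was 10% of the signal for Pf4 on each array and between 10.1% and 13.1% for Ppbp, Gp9 and Clec1b. For the dim probes of Gp1ba, Gp5 and Gp6 it was 27.8%, 27.1% and 41.6% on control replicate 1. Local background around the 8 spots was between 29 and 43.5 on the same scale. The processed signal is what remained after background subtraction. For these 3 genes on that array it was smaller than the local background of the spot. So was that of Gp5 on G2-EC-KO replicate 2, at 30.4 against 42.

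The G2-EC-KO arrays differed less from each other. Replicate 1 read higher than replicate 2 at 7 of 8 genes, against 47.1% of all probes, with Ppbp the exception, and the median of replicate 2 minus replicate 1 was -0.27. No gene was apart by over 1 log2 unit there, against 2.28% of all probes in either direction. The widest gap was that of Gp6, at -0.66. As deviations from the mean of each gene over the 4 arrays, the medians of the 8 genes were -0.94 and 0.28 in control and 0.37 and 0.18 in G2-EC-KO. Control replicate 2 lay between the G2-EC-KO arrays at 4 of 8 genes, against 31.7% of all probes. It lay above both at 2, Gp1bb and Clec1b, against 33.3%, and below both at 2, Pf4 and Ppbp, against 35%.

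**Figure D3:**
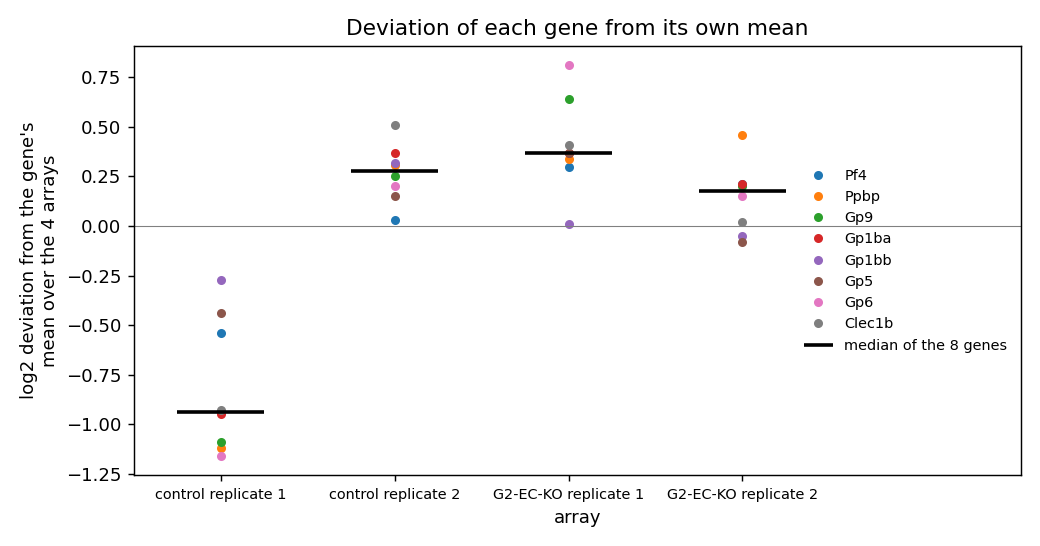
Deviation of each of the 8 genes from its own mean over the 4 arrays in log2 units (y axis) on each array (x axis), with bars at the median of the 8. On control replicate 1 the genes lie between -1.16 and -0.27, and on the other 3 arrays between -0.08 and 0.81.

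Other platelet and megakaryocyte genes were taken from 5 lists of 73 genes. Of these 71 had a probe and 64 were tested, 0 passed by limma, and 5 had an unadjusted p under 0.05, 4 with G2-EC-KO higher and 1 with G2-EC-KO lower, against 9.61% of all probes. In G2-EC-KO, 40 of the 64 were higher and 24 lower, against 50.1% of all probes higher. Their median log2 difference was 0.12. Control replicate 1 was the lowest array at 28 of the 64, against 8 of 8 in the glycoprotein and granule group and 25.1% of all probes tested. Many of these genes are also transcribed in endothelium or leukocytes, which the counts do not separate.

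Among receptors and integrins, 0 of 17 tested genes passed and the median log2 difference was 0.30. Treml1, which encodes a receptor of platelet alpha granules, read -3.71 and -2.72 in control and -2.14 and -2.44 in G2-EC-KO (log2 difference 0.93, SE 0.36; limma, adjusted p = 0.525). P2ry12, the gene of an ADP receptor, read -4.76 and -4.17 in control and -3.86 and -4.03 in G2-EC-KO. Both genes were lowest on control replicate 1, as were 11 of the 17 tested genes of the list. The median log2 difference between the control arrays was 0.04 over the list. P2ry1 and Adra2a were lowest on control replicate 2, with -3.23 and -3.18 there against -3.04 and -2.86 on control replicate 1. Itga2b and Itgb3 encode the fibrinogen receptor, and they did not run together. Itga2b was lowest on control replicate 1, with -4.13 against -3.74, -3.02 and -3.96 on the others, while Itgb3, which endothelium also expresses, read 0.38, 0.31, 0.55 and 0.15. The brightest probes of the list, for Itga6, Cd9, Esam and Jam3, had log2 differences of -0.04, 0.18, 0.10 and -0.14. Treml1, P2ry12, P2ry1 and Adra2a were singled out after their values were seen.

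Most other alpha granule cargo genes were not lowest on control replicate 1 as Pf4 and Ppbp were, with F13a1 among the exceptions. Of 13 tested genes 0 passed, 5 read higher in G2-EC-KO, 8 read lower, and control replicate 1 was lowest at 3. The brightest probes were those of Sparc, Srgn, Vwf and Pdgfa, with log2 differences of 0.07, 0.14, -0.18 and -0.35. Vwf, whose product is made in endothelium as well as in megakaryocytes, read 5.51 and 5.61 in control and 5.52 and 5.25 in G2-EC-KO. F13a1, which encodes the A chain of coagulation factor XIII and is expressed in macrophages too, read -0.07 and 0.57 in control and 0.84 and 0.59 in G2-EC-KO, and it was chosen after its values were seen.

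In the list of platelet signalling, cytoskeleton and enzymes 0 of 17 tested genes passed, with 11 higher and 6 lower. Control replicate 1 was the lowest array at 9 of the 17. Rgs18, a regulator of G protein signalling in platelets, read -4.94 and -3.97 in control and -3.25 and -3.85 in G2-EC-KO. Slc35d3 went the other way, with -4.30 and -4.39 in control and -5.89 and -8.01 in G2-EC-KO. Its log2 difference was -2.61 (SE 0.71; limma, adjusted p = 0.443), and it was well above background on the 2 control arrays alone. The size of this difference and its p-values therefore rest on G2-EC-KO levels that were too dim to be measured. Both genes are named after their values were seen. Treml1 and Rgs18 were the 2 of the 64 genes at which control replicate 2 lay over 0.9 log2 units above control replicate 1. Myh9, Flna, Gng11 and Ptgs1 had the brightest probes and log2 differences of 0.27, -0.03, 0.33 and 0.39. The list of granule biogenesis, whose brightest probes were those of Vps16, Hps4, Vipas39 and Vps33b with log2 differences of -0.05, -0.05, -0.02 and 0.14, had 0 of 8 genes passed and 0 at which control replicate 1 was lowest. Of the megakaryocyte transcription factors 0 of 9 tested genes passed. Gata1 and Gfi1b, factors of the megakaryocyte lineage, were not well above background on any of the 4 arrays, whereas Fli1, Zfpm1, Gata2 and Mafg, with log2 differences of 0.08, 0.01, 0.30 and -0.38, were so on all.

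Markers of macrophages, like the platelet genes, were mostly lowest on control replicate 1. Of 14 listed genes 13 had a probe, all were well above background on at least 2 arrays, and control replicate 1 was the lowest array at 12 of 13. The G2-EC-KO mean was higher at 13 of 13, with a median log2 difference of 0.33, against 7 of 8 platelet genes and 50.1% of all probes. These values include control replicate 1. The median deviations of the list from the mean of each gene were -0.50 and 0.18 in control and 0.18 and 0.09 in G2-EC-KO. By these medians control replicate 2 read no lower than either G2-EC-KO array. The summed level of the macrophage markers, in percent of the 75th percentile of the array, was 1053 and 1537 in control and 1577 and 1443 in G2-EC-KO. The summed level of the 8 platelet genes, most of it Pf4, was 321 and 515 in control and 605 and 564 in G2-EC-KO. C1qc, a complement gene of tissue macrophages, read 0.02 and 0.70 in control and 0.61 and 0.77 in G2-EC-KO, and 0 of 13 genes passed by limma, with 2, Tyrobp and Ccr2, at an unadjusted p under 0.05. Ccr2, a chemokine receptor of monocytes, is named after its values were seen. It read -7.36 and -5.98 in control and -4.76 and -5.28 in G2-EC-KO. Of the arrays 2 were well above background for Ccr2, neither of them a control (limma adjusted p = 0.472). The size of its difference and its p-values therefore rest on control levels that were too dim to be measured. Lyz1, Tyrobp and Lyve1 had log2 differences of 0.15, 0.35 and 0.03. The part of macrophages in the level of Pf4 was not tested. The median log2 difference between the control arrays was 0.63 for the macrophage list and 1.33 for the 8 platelet genes.

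Markers of granulocytes, lymphocytes and erythroid cells were not lowest on control replicate 1 at any tested gene. Granulocyte markers summed to 1271 and 663 in control and to 1398 and 941 in G2-EC-KO, so that control replicate 1 was above control replicate 2, and 3 of 9 genes with a probe, Elane, Camp and Cxcr2, were not well above background on any array. Lymphocyte markers summed to 120.2 and 58.3 in control and 82.6 and 71.3 in G2-EC-KO, with Cd3g and Cd8a not well above background on any array. Erythroid markers summed to 18935 and 16297 in control and 31167 and 16304 in G2-EC-KO, where G2-EC-KO replicate 1 alone was high, and the G2-EC-KO mean was higher at 4 of 4 tested genes with a median log2 difference of 0.37. Among the genes of that list, Epb42 and Klf1 were not well above background on any array. In these 3 lists control replicate 1 was the lowest array at 0 of 6, 0 of 8 and 0 of 4 tested genes. Mast cell markers summed to between 688 and 796, with Cpa3, Ms4a2 and Tpsb2 not well above background on any array. Nearly all of that sum was Hdc, the histidine decarboxylase gene, with a log2 difference of -0.04. By limma 0 genes of these 4 lists passed. Of the 4 mast cell genes tested, 2 had an unadjusted p under 0.05, against 9.61% of all probes, both with G2-EC-KO higher, and both are named after their values were seen. Mcpt4, a mast cell protease, read -7.47 and -7.34 in control and -4.46 and -5.24 in G2-EC-KO. It was well above background on 2 arrays, neither of them a control (limma adjusted p = 0.387). The size of its difference and its p-values therefore rest on control levels that were too dim to be measured. Cma1, the chymase gene, read -4.85 and -5.27 in control and -4.37 and -4.55 in G2-EC-KO (limma adjusted p = 0.472). The part of these cells in the platelet gene values was not tested.

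Markers of the vessel wall and the heart muscle differed from list to list. Endothelial markers summed to 55298 and 60508 in control and 56664 and 59067 in G2-EC-KO, and their 4 brightest probes, for Flt1, Cldn5, Emcn and Robo4, had log2 differences of 0.01, -0.22, 0.09 and 0.13. Fibroblast markers summed to 15784 and 18791 in control and 18559 and 20165 in G2-EC-KO, with control replicate 1 lowest at 5 of 9 genes and a higher G2-EC-KO mean at 8 of 9, the median log2 difference being 0.16. Cardiomyocyte markers had a higher G2-EC-KO mean at 12 of 12 genes with a median of 0.41, and control replicate 1 was lowest at 6 of 12. Their median deviations from the mean of each gene were -0.10 and -0.19 in control and -0.10 and 0.46 in G2-EC-KO. By these medians G2-EC-KO replicate 2 alone was high. The fibroblast and cardiomyocyte lists thus lay above the 50.1% of all probes with a higher G2-EC-KO mean and the 25.1% with control replicate 1 lowest. Pericyte and smooth muscle markers had a higher G2-EC-KO mean at 2 of 9 genes and control replicate 1 lowest at 0 of 9, and lymphatic markers had 2 of 6 for both counts. The sums over the 4 arrays were 24270 to 33963 for pericyte and smooth muscle markers, 9840 to 14988 for cardiomyocyte markers and 2998 to 4478 for lymphatic markers. By limma 0 tested genes of these lists passed, with 2 of 9 fibroblast and 2 of 12 cardiomyocyte genes at an unadjusted p under 0.05, against 9.61% of all probes, and their part in the platelet gene values was not tested.

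**Figure D4:**
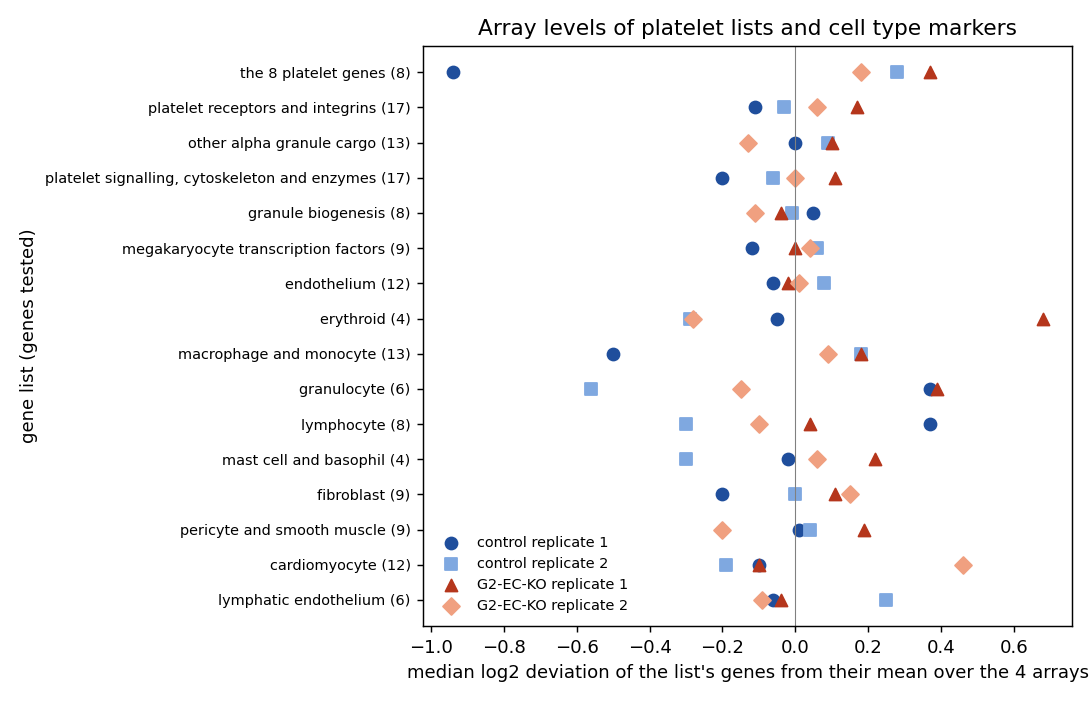
Median log2 deviation of the tested genes of each list from their mean over the 4 arrays (x axis), for the 8 platelet genes, 5 further platelet lists and 10 cell type marker lists (y axis, number of genes tested in brackets); each point is 1 array. Control replicate 1 lies at -0.94 for the 8 platelet genes and -0.50 for macrophage markers, and at 0.37 for both granulocyte and lymphocyte markers.

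The genes whose profile over the 4 arrays was most like that of Pf4 were sought among 13129 other genes well above background on all arrays, by the root mean square distance of the centred log2 values. The nearest were Alox5, at 0.014, Ccl9, at 0.025, P2ry12, at 0.033, Tlr7, at 0.042, and Nhlrc2, at 0.048. Ranked the same way, Gp1bb stood at 3359, Clec1b at 6825, Ppbp at 7992 and Gp9 at 7998. Gp1ba, Gp5 and Gp6 were not well above background on every array and were not ranked. The 4 ranked genes shared the low value on control replicate 1 but differed from Pf4 in its size and in the order of the other arrays. The measure rests on 4 arrays of 1 slide and ranks genes by the size of their deviations as well as by their order. The 5 genes with a GATA word in their window had log2 group differences of -0.04 to 0.96, and the 3 without, Pf4, Ppbp and Gp9, of 0.51 to 0.84, so the ranges overlapped.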

How the data were processed

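Total RNA of 4 samples was hybridised to 1-colour Agilent arrays of design 014868. The authors deposited scanner files with spot intensity values on a linear scale, quantified, per the file headers, with Feature Extraction 10.7.3.1 (10.5 per the submitters' processing notes), background-subtracted and detrended within each array. A deposited value table equals the median signal minus the local background plus 16 in every row, so it is linear and not centred, and it served as an alternative, floored at 1. Control spots and spots flagged as outliers were left out. The log2 signal minus the 75th percentile of the array was averaged over the spots of a probe, and probes well above background on at least 2 of 4 arrays were tested. Symbols came by accession from RefSeq (GRCm38.p6), for 26933 of 41174 probes, and lists use the probe of a gene with the highest mean.

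The group comparison used limma 3.58.1 under R 4.3.3 (lmFit, eBayes, group alone, two-sided, Benjamini-Hochberg over all probes tested), with 2 residual and 2.58 prior degrees of freedom. The smallest two-sided p of an exact permutation test is 0.333 at this size. The fit was tested on simulated data. The genes and lists were chosen with earlier results of these data known. All probes of the 8 genes are named, and of each list up to 4 genes with the brightest probes, Itga2b, Itgb3 and Pdpn. Other genes were chosen after their values were seen. Alternatives were quantile and median scaling, other filters, the deposited table, an intensity trend, a replicate block, leaving out each array and, chosen after seeing the data because the mean signal is not a column of the files, normexp (offset 50) on the median signal.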

Additional observations from a re-analysis of the deposited data

How the results depend on the processing

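Over 12 alternatives, 93 values of the 8 genes were computed by limma, 0 passed an adjusted p of 0.05 (range 0.409 to 0.999) and 88 kept the sign. The sign turned for Gp1bb with normexp, to 0.06, and when 1 array was left out. Leaving out each array in turn moved Gp1ba between -0.08 and 1.24, Gp5 between -0.01 and 0.58, Clec1b between -0.29 and 1.14 and Gp1bb between -0.34 and 0.25, the negative values being those without control replicate 1, which also gave the lowest values of the other genes. It moved the median of the 8 genes between 0.04 and 1.19, against 0.54. The number of probes called over the whole array, 1 with all arrays, was 2 with normexp, 2 with quantile normalization and 2 with median centring, and 0 with no filter, with the filter on all 4 arrays, with the intensity trend and with the replicate block (2603, 2576, 2821 and 2691 at an unadjusted p under 0.05, limma). Leaving out each array gave 0 to 8, the 8 being those without control replicate 1; the 0 without each of the other arrays stood beside 1445, 5618 and 2183 at an unadjusted p under 0.05. The cause was not tested. The replicate block gave a median of 0.54 for the 8 genes. The labels do not say whether same-numbered samples were paired. Deviations of same-numbered arrays correlated at 0.04 over 26883 probes, which with 2 arrays in a group cannot decide this. The filter on all 4 arrays left 5 of the 8 genes. The mean signal that normexp was planned on is not a column of the files, so that form was not run. Gp1ba, Gp5 and Gp6 were dim, and their values on control replicate 1, not well above background, carry the largest scanner errors.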
